A study of Mus musculus with 6 samples.

Results

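The semaphorins, their plexin receptors and the neuropilin coreceptors were followed as 31 genes: 20 semaphorins, 9 plexins and 2 neuropilins. They were chosen by symbol, and all 31 had at least 1 probe set that the array annotation assigns to that gene alone, out of 18194 genes measured. RNA came from branchial arch 1, the embryonic jaw primordium, of mouse embryos at embryonic day 11.5, with 1 arch per embryo and 1 single-colour array per arch. All embryos were Ezh2lox/lox, with both alleles of the histone methyltransferase gene Ezh2 conditional. The 3 labelled-control embryos had no further transgene listed. The 3 labelled-mutant embryos also carried Wnt1Cre, a transgene that drives Cre recombinase in the neural crest lineage. Endothelium, muscle precursors and epithelium of the arch do not come from that lineage and are outside its reach.

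Semaphorins are secreted or membrane-bound proteins that steer axons, migrating cells and growing vessels, mostly by repulsion. Plexins receive the signal and act on small GTPases and the cytoskeleton. Most class 3 semaphorins, which are secreted, need a neuropilin to bind a plexin, while the membrane-bound classes bind plexins directly. In the head, signals through neuropilins keep streams of migrating crest cells apart and guide cranial nerves, and Nrp1 also serves as a coreceptor for VEGF in endothelium.

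Signals are log2 values as deposited, brought by the authors to 1 distribution with a 25th percentile of 4.325, a median of 5.813 and a 75th percentile of 8.167. Where a gene has several probe sets, its brightest one on average stands for it, and signals of different probe sets are not compared with each other. Changes are labelled mutant minus labelled control, with limma's moderated standard error and with p-values adjusted over all 18194 genes (Benjamini-Hochberg, threshold 0.05). Of the 7 markers of arch mesenchyme listed for a check of the tissue, 7 lay above the 75th percentile on every array. The single probe set of Ezh2 read 11.63 ± 0.15 (SD, n = 3) in labelled-control and 11.66 ± 0.01 in labelled-mutant arches, and because its place relative to the deleted part of the gene is not known here, it is no check of the labels. Xist read 5.45 to 5.75 in labelled-control and 12.92 to 13.10 in labelled-mutant arches, so label and embryo sex cannot be told apart in any comparison below. Hoxa9 and Hoxa10, which are silent in the normal jaw arch and are known targets of Polycomb repression, read 11.28 ± 0.37 and 10.57 ± 0.23 in labelled-control and 4.21 ± 0.36 and 3.86 ± 0.07 in labelled-mutant arches. These levels go against the labels, and whether the labels were exchanged was not tested. Every rise and fall below is therefore given by label, and would turn round as an effect of the mutation if they were. Plxna3 and Plxnb3 are the 2 X-linked members, and neither passed the threshold.

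Nrp1, Sema4f and Plxnc1 fell in the labelled-mutant arches, and Plxna2, Sema4d and Sema6b showed smaller rises. Thus 6 of 31 members passed (19.4%), against 5.53% of all genes. Because the members were chosen with earlier results of these data known, the shares given here are descriptive and no independent test. The 3 that rose compare with 1.23% of all genes higher, and the 3 that fell with 4.30% of all genes lower. In 11 members (35.5%) the signals of both labels were fully separated, against 24.9% of all genes. The labelled-mutant arrays were the higher ones in 6 of these (13% of all genes) and the lower ones in 5 (11.9% of all genes). The median change over the members was 0.04, and that over all genes 0.02. By class, 0 of 7 class 3 semaphorins passed with limma. An unadjusted p under 0.05 was seen in 2 of them, and in 3405 of all 18194 genes. Of the 13 semaphorins of classes 4 to 7, 2 rose and 1 fell, and of the 9 plexins 1 rose and 1 fell. Of both neuropilins, 1 fell.

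**Figure D1:**
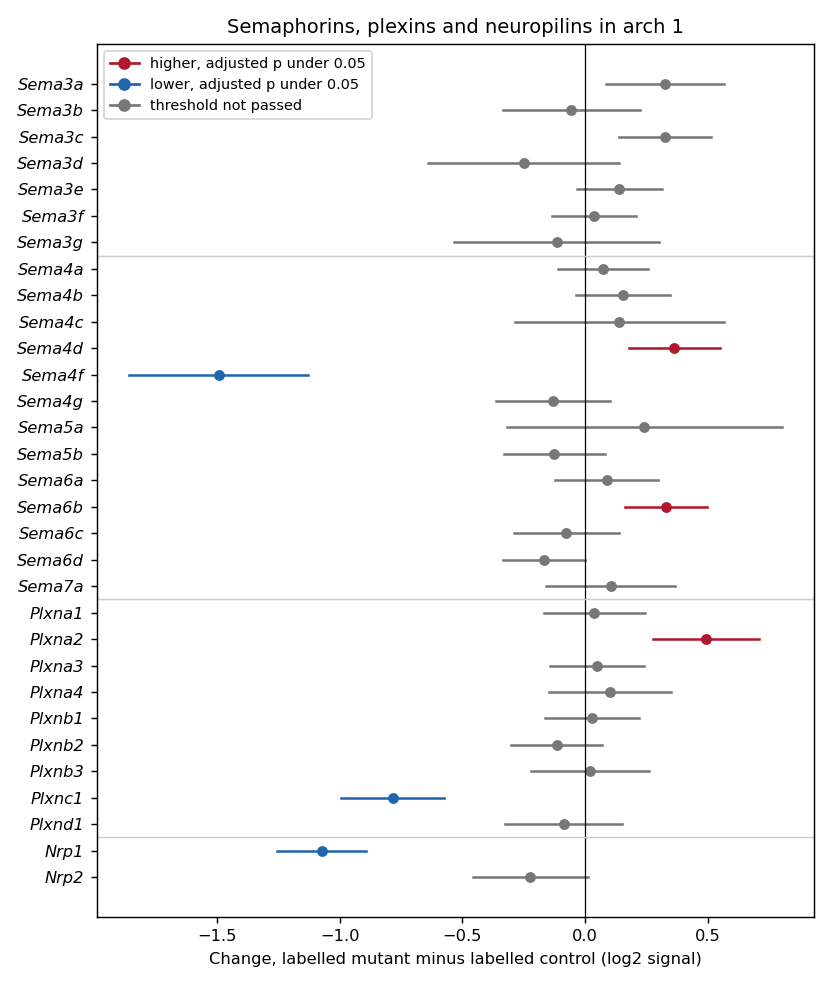
Change of each of the 31 members (points, labelled mutant minus labelled control, log2 signal) with its 95% interval (lines), in the order class 3 semaphorins, other semaphorins, plexins and neuropilins. Sema4f, Nrp1 and Plxnc1 lie farthest to the left, and the 3 members that rose lie between 0.33 and 0.49.

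Among the coreceptors, Nrp1, which binds class 3 semaphorins and VEGF, had a clear fall. Its brightest probe set read 11.01, 11.14 and 10.96 on the labelled-control arrays and 9.97, 10.01 and 9.91 on the labelled-mutant arrays. The groups lay about 1 log2 unit apart and each spanned little. The change was -1.07 with a standard error of 0.08, which is a 2.11-fold lower signal (limma, Benjamini-Hochberg adjusted p = 1.81e-04). Each of the 4 probe sets of Nrp1 read lower in every labelled-mutant arch than in any labelled-control arch, with changes of -1.07, -1.05, -0.84 and -0.81. The second of these read 8.98, 9.58 and 9.31 against 8.08, 8.25 and 8.39. With every probe set tested on its own, adjusted over 34958 probe sets, the first 2 passed and the other 2 did not (limma, Benjamini-Hochberg adjusted p = 0.0737 and 0.0617).

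Nrp2, the other coreceptor and the main partner of Sema3f, did not pass. It read 9.85, 9.73 and 9.93 in labelled-control and 9.61, 9.45 and 9.78 in labelled-mutant arches, so that the groups overlapped. The change was -0.22, with a 95% interval of -0.46 to 0.01 (limma, Benjamini-Hochberg adjusted p = 0.293). All 4 of its probe sets had a negative change, from -0.38 to -0.10. At the probe set with the change of -0.38 the groups did not overlap (limma, Benjamini-Hochberg adjusted p = 0.112 over all probe sets). The 95% interval of Nrp1 was -1.26 to -0.89 and shared no value with that of Nrp2, but the difference between both changes was not tested.

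The promoters of the members past the threshold are shown because CpG-dense promoters are the kind that the Polycomb complex of Ezh2 is known to occupy. The RefSeq table of promoter windows (GRCm38.p6; 250 bases before to 50 after a transcription start) matched 26 of the 31 members. The 4 members past the threshold with a single window are printed 5′ to 3′ on the gene's strand, with each CG dinucleotide in capitals.
Nrp1 (chr8:128358823-128359122, plus strand): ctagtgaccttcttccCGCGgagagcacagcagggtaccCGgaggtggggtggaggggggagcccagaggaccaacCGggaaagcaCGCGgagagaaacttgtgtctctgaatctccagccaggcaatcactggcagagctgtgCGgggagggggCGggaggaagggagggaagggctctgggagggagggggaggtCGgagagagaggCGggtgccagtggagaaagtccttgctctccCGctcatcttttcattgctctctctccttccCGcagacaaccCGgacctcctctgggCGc
Plxnc1 (chr10:94944796-94945095, minus strand): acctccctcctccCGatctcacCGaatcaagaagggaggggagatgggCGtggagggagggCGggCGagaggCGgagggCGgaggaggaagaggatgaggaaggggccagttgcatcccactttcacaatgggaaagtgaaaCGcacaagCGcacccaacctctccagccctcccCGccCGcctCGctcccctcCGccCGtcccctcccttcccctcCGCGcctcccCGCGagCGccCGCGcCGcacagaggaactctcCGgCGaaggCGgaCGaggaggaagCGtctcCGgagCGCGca
Sema4f (chr6:82939720-82940019, minus strand): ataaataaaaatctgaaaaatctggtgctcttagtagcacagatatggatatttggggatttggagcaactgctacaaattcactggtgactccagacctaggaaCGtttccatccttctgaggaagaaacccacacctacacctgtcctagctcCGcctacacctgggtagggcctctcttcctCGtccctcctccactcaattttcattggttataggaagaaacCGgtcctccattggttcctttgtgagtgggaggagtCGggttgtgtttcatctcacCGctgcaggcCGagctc
Plxna2 (chr1:194619579-194619878, plus strand): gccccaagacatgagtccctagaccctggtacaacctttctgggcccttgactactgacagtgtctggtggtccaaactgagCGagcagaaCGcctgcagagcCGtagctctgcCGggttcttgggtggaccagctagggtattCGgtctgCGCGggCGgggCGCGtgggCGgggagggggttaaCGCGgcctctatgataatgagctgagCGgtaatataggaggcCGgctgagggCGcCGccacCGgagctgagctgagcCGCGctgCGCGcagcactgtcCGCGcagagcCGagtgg

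The 3 genes that fell did not share one kind of window. That of Plxnc1 held 30 CG dinucleotides, that of Nrp1 14 and that of Sema4f 7, and the window of Plxna2, which rose, held 25. The median over all 32851 windows was 7. A window was counted as CpG-rich with over 50% G and C and a ratio of observed to expected CG over 0.6. By this count the windows of Plxnc1 (ratio 0.84) and Plxna2 (0.81) were CpG-rich, and those of Nrp1 (0.47) and Sema4f (0.40) were not. Sema6b had 2 windows, 1 of them CpG-rich, and the 3 windows of Sema4d held 2 or 3 CG dinucleotides each. Over the members 18 of 37 windows were CpG-rich (48.6%), against 33.3% of all windows. No binding or histone data enter here, and which start is used in the arch was not measured.

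The largest change of a ligand was the fall of Sema4f, a membrane-bound semaphorin known from neurons and glia. Its brightest probe set read 7.99, 7.90 and 8.09 on the labelled-control arrays and 6.90, 6.25 and 6.36 on the labelled-mutant arrays. The labelled-mutant arches spread more widely than the labelled-control arches, with SDs of 0.35 and 0.09, yet stayed well below them. The change was -1.49 ± 0.16 (SE), a 2.81-fold lower signal (limma, Benjamini-Hochberg adjusted p = 0.0014). The suffix of its identifier (x) marks probes that may also bind other transcripts. The other probe set of Sema4f read 6.77, 6.73 and 6.92 against 6.65, 6.19 and 6.39, a smaller change of -0.40 whose groups did not overlap either (limma, Benjamini-Hochberg adjusted p = 0.173 over all probe sets). With the mean of both probe sets the change was -0.95 and still passed (limma, Benjamini-Hochberg adjusted p = 0.0073).

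Sema4d, which binds B plexins and is known from immune cells and neurons, rose slightly. It read 7.63, 7.56 and 7.67 in labelled-control and 7.87, 8.06 and 8.02 in labelled-mutant arches. The groups did not overlap, although their nearest arrays lay close together. The change was 0.36 ± 0.08 (SE) (limma, Benjamini-Hochberg adjusted p = 0.0380). Both other probe sets of Sema4d had changes of 0.06 and 0.07 with overlapping groups. Leaving out 1 array ended the call in 5 of 6 cases, namely labelled-control arrays 1, 2 and 3, with limma's adjusted p at 0.0631, 0.121 and 0.0558, and labelled-mutant arrays 2 and 3, at 0.174 and 0.167. With the mean of its probe sets the change was 0.16 (limma, Benjamini-Hochberg adjusted p = 0.268).

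Sema6b, a membrane-bound ligand of A plexins, rose from 5.68, 5.80 and 5.78 to 6.05, 6.09 and 6.10. Its signal lay near the median of the arrays and its arrays lay close together within each label. The change was 0.33 ± 0.07 (SE) (limma, Benjamini-Hochberg adjusted p = 0.0369). It rests on a single probe set and on all 6 arrays, since leaving out any of them ended the call (limma, Benjamini-Hochberg adjusted p = 0.0588, without labelled-control array 3, to 0.167, without labelled-mutant array 3). It also missed the threshold with trend and robust settings (0.0707).

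The remaining membrane-bound semaphorins did not pass, with changes between -0.17 and 0.24. Sema6d, which signals through Plxna1 and is known from heart development in the chick, had the lowest of these changes. It read 9.22, 9.22 and 9.28 against 9.14, 9.07 and 9.02, without overlap (limma, Benjamini-Hochberg adjusted p = 0.264). Sema5a, a transmembrane guidance cue with thrombospondin repeats, had the highest, 0.24, but its labelled-control arrays spread from 8.02 to 9.06 and enclosed the labelled-mutant values of 8.42 to 8.90. Sema4c, a ligand of B plexins, likewise read 9.68, 9.64 and 8.92 in labelled-control arches around labelled-mutant values of 9.49, 9.67 and 9.50. At these probe sets labelled-control array 3 stood apart from the other labelled-control arrays. The second probe set of Sema5a instead read lowest on that array, at 6.86. All 4 probe sets of Sema5a had a positive change, from 0.09 to 0.41, and in 1 of them the groups did not overlap.

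Sema5b, the other thrombospondin-repeat semaphorin, depended on the probe set. The brightest read 6.10, 6.14 and 6.38 against 6.07, 6.09 and 6.09, a change of -0.13 (limma, Benjamini-Hochberg adjusted p = 0.515). Its second probe set read 6.29, 6.37 and 6.67 in labelled-control and 5.59, 5.63 and 5.78 in labelled-mutant arches. That fall of 0.77 on the log2 scale passed when every probe set was tested on its own (limma, Benjamini-Hochberg adjusted p = 0.0129). The mean of both probe sets passed as well, with a change of -0.45 (limma, Benjamini-Hochberg adjusted p = 0.0346). Over the 78 probe sets of the members, 7 passed on their own (8.97%), against 2.82% of all 34958 probe sets. They were 2 of Nrp1, 2 of Plxna2, and 1 each of Sema4f, Plxnc1 and Sema5b.

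Sema4a, Sema4b and Sema4g had changes of 0.07, 0.15 and -0.13, and Sema6a and Sema6c of 0.09 and -0.08. Sema7a, a membrane-anchored ligand of Plxnc1 and of beta-1 integrin, had a change of 0.10 with a 95% interval of -0.16 to 0.36. At the brightest probe sets none of these groups was separated. In a second probe set of Sema6a they were, with a change of 0.21 (limma, Benjamini-Hochberg adjusted p = 0.292 over all probe sets).

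**Figure D2:**
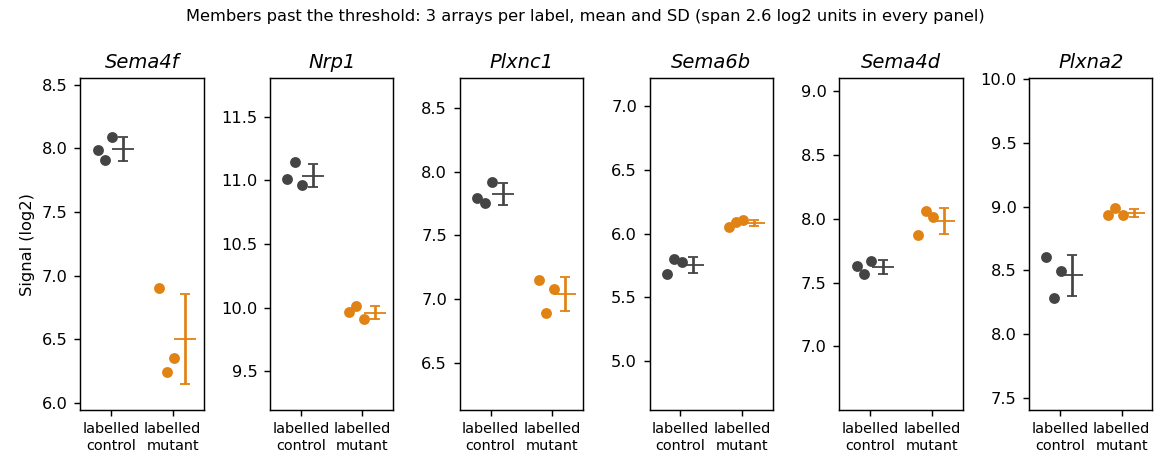
Log2 signal of the 6 members past the threshold on each of the 3 labelled-control (dark) and 3 labelled-mutant (orange) arrays, with the mean and SD beside them. Every panel spans the same number of log2 units, and in none do the groups overlap. Sema4f, Nrp1 and Plxnc1 are separated more widely than Sema6b, Sema4d and Plxna2.

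The secreted class 3 ligands did not pass. Sema3a and Sema3c were the 2 with an unadjusted p under 0.05, both with a change above 0. Sema3a, the prototype repellent that acts through Nrp1, read 9.65, 9.50 and 9.59 in labelled-control and 10.03, 9.69 and 10.00 in labelled-mutant arches. Its groups did not overlap, and its change was 0.32 with a 95% interval of 0.08 to 0.57 (limma, Benjamini-Hochberg adjusted p = 0.138). Both other probe sets of Sema3a had larger changes, 0.60 and 0.53, and the mean of all 3 passed at 0.48 (limma, Benjamini-Hochberg adjusted p = 0.0190).

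Sema3c, an attractant for cardiac neural crest cells, read 8.71, 8.58 and 8.81 against 9.02, 9.05 and 9.01. The labelled-mutant arrays lay very close together above all labelled-control arrays, and the change was also 0.32 (limma, Benjamini-Hochberg adjusted p = 0.0603). It passed with trend and robust settings (0.0479) and without labelled-control array 3 (0.0447). The second probe set of Sema3c had a change of 0.17 with overlapping groups.

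Sema3e, which binds Plxnd1 without a neuropilin, read 4.95, 4.84 and 4.98 against 5.09, 5.08 and 5.02, below the median of the arrays throughout. Its change was 0.14 (limma, Benjamini-Hochberg adjusted p = 0.377). Sema3d, a guidance cue known from crest and heart development, had a change of -0.25, with 1 labelled-control array at 9.40 and the other 5 arrays between 8.66 and 8.77. The ligand of Nrp2, Sema3f, had a change of 0.04 with a 95% interval of -0.13 to 0.21. Sema3b and Sema3g, the latter known from vessels, had changes of -0.06 and -0.12, and Sema3b lay below the median on every array.

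Of the receptors, Plxnc1 fell and Plxna2 rose. Plxnc1, the receptor of Sema7a, read 7.80, 7.76 and 7.92 on the labelled-control arrays and 7.15, 6.89 and 7.08 on the labelled-mutant arrays (brightest of 6 probe sets). The nearest arrays of both labels were over 0.6 apart, more than either label spanned. The change was -0.78 ± 0.09 (SE), a 1.72-fold lower signal (limma, Benjamini-Hochberg adjusted p = 0.0023). A second probe set read 6.50, 6.39 and 6.74 against 6.11, 6.01 and 6.13, a change of -0.46 (limma, Benjamini-Hochberg adjusted p = 0.0658 over all probe sets). The other 4 of its 6 probe sets lay under the 25th percentile of the arrays on every array and had changes between -0.16 and 0.25. With the mean of all 6 the change was -0.20 and the call was lost (limma, Benjamini-Hochberg adjusted p = 0.236).

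Plxna2, a receptor of class 3 signals with neuropilins and of class 6 semaphorins without them, read 8.60, 8.29 and 8.49 in labelled-control and 8.93, 8.99 and 8.94 in labelled-mutant arches (brightest of 4 probe sets). The labelled-mutant arrays lay within 0.1 of each other and above all labelled-control arrays. The change was 0.49 ± 0.09 (SE), a 1.41-fold higher signal (limma, Benjamini-Hochberg adjusted p = 0.0194). Its 4 probe sets had changes of 0.49, 0.49, 0.53 and 0.44, and the groups overlapped in the last of these, the dimmest, where the SE was 0.38. The call ended when labelled-control array 2 was left out, at limma's adjusted p = 0.0518, and likewise for labelled-mutant arrays 1, 2 and 3, at 0.0533, 0.0909 and 0.0811. It was also lost with the mean of the probe sets (0.0903), while the change kept a similar size, 0.49.

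The other 7 plexins did not pass, and their groups overlapped. Plxna1, Plxna3 and Plxna4 had changes of 0.04, 0.05 and 0.10. Among the B plexins, which receive class 4 signals, Plxnb1 read 9.05, 8.95 and 9.17 against 9.09, 9.02 and 9.14, a change of 0.03 with a 95% interval of -0.16 to 0.22. Plxnb2 and Plxnb3 had changes of -0.12 and 0.02. Plxnd1, the receptor of Sema3e and a regulator of vessel patterning, read 9.15, 9.33 and 9.07 against 9.20, 9.17 and 8.92, a change of -0.09 with a 95% interval of -0.33 to 0.15. Of the 25 members that did not pass, 20 had a change between -0.2 and 0.2, and in 23 the 95% interval stayed within -0.6 and 0.6. Sema3d and Sema5a were the other 2, with bounds of -0.64 and 0.80.

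**Figure D3:**
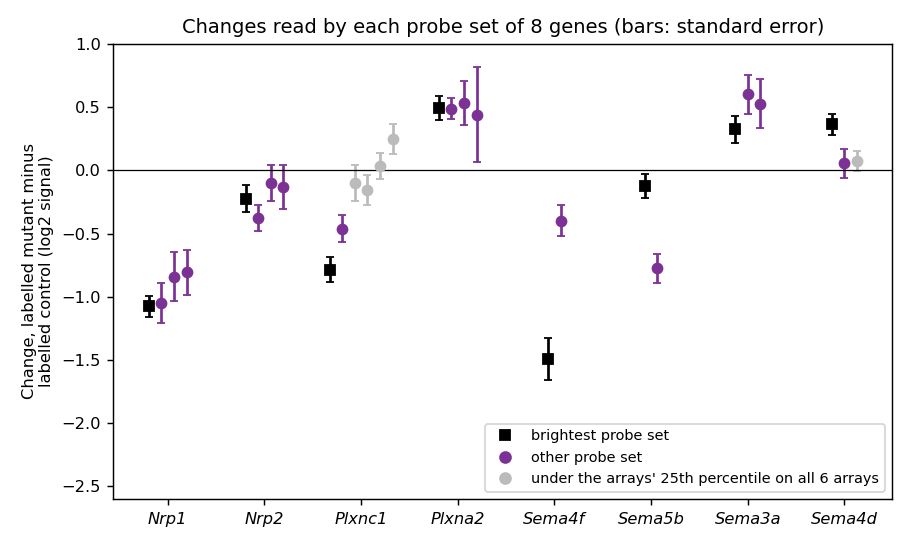
Change read by each probe set of 8 genes (labelled mutant minus labelled control, log2 signal; bars are standard errors from the fit over all single-gene probe sets). All 4 probe sets of Nrp1 lie between -1.07 and -0.81 and all 4 of Plxna2 between 0.44 and 0.53, whereas those of Sema4f, Sema5b, Plxnc1 and Sema4d differ in size.

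Genes that act around these receptors passed the threshold at about the share of all genes. Of 53 measured genes of a list of 55 partners and effectors, 1 rose and 2 fell (5.66%, against 5.53% of all genes), and the median change was -0.08. The labels were fully separated in 19 of the 53 (35.8%, against 24.9% of all genes), with the labelled-mutant arrays lower in 14 and higher in 5 (11.9% and 13% of all genes). With trend and robust settings 7 of the 53 passed, 6 of them lower, against 1032 of all 18194 genes, 804 of them lower. Met, a receptor tyrosine kinase that can associate with B plexins, read 7.75, 7.72 and 7.67 against 7.09, 6.92 and 7.13, a change of -0.66 (limma, Benjamini-Hochberg adjusted p = 0.0030). Its groups were far apart, but with the mean of both its probe sets the change was -0.31 and the call was lost (limma, Benjamini-Hochberg adjusted p = 0.0846). Crmp1, of the family of cytoplasmic proteins that relay the Sema3a signal in growth cones, fell by 0.35 on the log2 scale (limma, Benjamini-Hochberg adjusted p = 0.0404). Vegfc, a vessel growth factor that binds neuropilins, rose by 0.68, from 8.74, 8.79 and 8.17 to 9.19, 9.30 and 9.26 (limma, Benjamini-Hochberg adjusted p = 0.0386). Crmp1 missed the threshold whichever array was left out, at limma's adjusted p of 0.0612 (labelled-control array 1) to 0.166 (labelled-mutant array 3). For Vegfc this happened with labelled-control arrays 1 and 2, at limma's adjusted p = 0.0516 and 0.0519, and with labelled-mutant arrays 1, 2 and 3, at 0.0802, 0.139 and 0.137.

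Some markers of several cell types passed the threshold, against 4.30% of all genes lower and 1.23% higher. Of 8 neuronal markers measured, 5 fell (Nefl, Nefm, Tubb3, Isl1 and Stmn2), while Elavl3 (-0.04), Elavl4 (-0.11) and Ina (-0.21) did not pass. The summed linear signal of all 8 was 2370 to 2918 in labelled-control and 1017 to 1237 in labelled-mutant arches. Of 4 glial and crest markers 1 fell, Sox10 (-0.66), with sums of 722 to 1230 and 552 to 662. Of 6 muscle markers 3 fell (Myog, Actc1 and Myod1), with sums of 1174 to 1681 and 478 to 955. Myf5 (-0.19), Chrna1 (-0.27) and Des (0.14) did not pass. Of 5 macrophage markers 1 fell, Ptprc (-0.46), with sums of 886 to 1051 and 624 to 808. C1qa (-0.50), Csf1r (-0.46), Cx3cr1 (-0.18) and Fcgr1 (0.07) did not pass. Each sum here and below is led by its brightest probe sets, such as that of Isl1 among the neuronal markers. It is therefore no measure of a whole cell type. Fewer cells of a type and less RNA per cell cannot be told apart in such whole arches. The part of these cell types in the falls of Sema4f, Nrp1, Plxnc1 and Crmp1 was not tested.

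Endothelial markers had overlapping sums, 1459 to 1892 in labelled-control and 1609 to 1745 in labelled-mutant arches. None of the 7 passed with limma, and the median change was -0.08. The changes were -0.24 for Tie1, -0.13 for Tek, -0.10 for Emcn, -0.08 for Cdh5, -0.01 for Pecam1 and 0.01 for Esam. Kdr, the VEGF receptor that pairs with Nrp1, had a change of 0.10. Of 6 epithelial markers 1 rose, Krt8 (0.52), with sums of 3413 to 4862 and 4126 to 4216. Krt18 (0.32), Cdh1 (0.16), Trp63 (0.11), Epcam (-0.13) and Krt5 (-0.53) did not pass. Of 3 erythroid markers 0 passed, with sums of 28109 to 38052 and 26893 to 30957. Of 7 mesenchymal markers Msx1, Dlx2 and Hand2 rose and Pdgfra fell by 0.63 on the log2 scale, with sums of 17039 to 18672 and 18178 to 19318. No marker of any of these lists lay under the 25th percentile on every array.

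**Figure D4:**
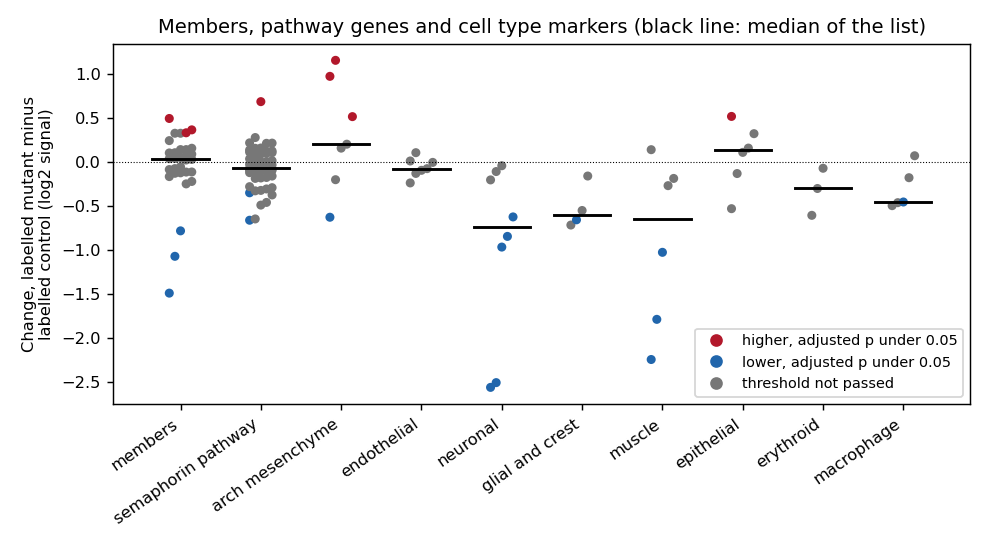
Change of each member, of 53 pathway genes and of the markers of 8 cell types (points, labelled mutant minus labelled control, log2 signal; black lines are medians). The members centre on 0.04 with 3 low points, the neuronal markers centre on -0.74, and the endothelial markers lie between -0.24 and 0.10.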

How the data were processed

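Total RNA of 6 single arches was labelled with biotin and read on 1-colour arrays, per the labels' protocols. The deposited values are 1 log2 signal per probe set and array after the authors' processing. That the scale is log2 follows from their range, and equal quantiles on all arrays show that the authors had brought them to 1 distribution. The software and the steps before that are not given in the labels used here. Such normalization hides any general shift of signal. No detection call was used. With 3 arrays per label, array number sets the precision.

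Of 45101 probe sets, 34958 carried exactly 1 symbol in the platform annotation of GEO, 932 several and 9211 none. Each gene was represented by its brightest probe set, by the mean of 6 arrays. Groups came from the sample titles, which call the samples biological replicates. Differences were fitted with limma 3.58.1 (R 4.3.3; lmFit and eBayes, two-sided, no covariate, no filter, Benjamini-Hochberg over 18194 genes). Members were matched to RefSeq genes of GRCm38.p6 by Entrez identifier (31 of 31). All members are named. Of the partners and effectors, those past the threshold are named, at most 5 in each direction. Of that list 53 of 55 genes were analysed, and some listed markers were not analysed here. The members and lists were chosen with earlier results of these data known.

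A test on simulated data with 200 altered genes among 18194 recovered 66.7% of shifts of 0.5 log2 units and 100% of shifts of 1, and 5.26% of its 190 calls were false. Same-numbered arrays did not deviate together (correlations of their deviations from the group means of -0.21, -0.12 and -0.07), so the replicate numbers were not taken as pairs. Alternatives were added quantile normalization, median centring, averaged probe sets, every probe set tested, a floor at the 20th percentile, dim genes left out, trend and robust variance, a replicate block, and each array left out.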

Additional observations from a re-analysis of the deposited data

How the results depend on the processing

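Nrp1 and Sema4f kept their fall and their call under all 14 alternatives, with adjusted p-values up to 0.0079 and 0.0491, both with floored signals (limma, Benjamini-Hochberg), and Plxnc1 under 13 of 14. The rises were less firm: Plxna2 stayed past the threshold in 7 of 14 alternatives, and Sema4d and Sema6b in 5 of 14 each. Signs were compared for the members and for the 3 partners and effectors past the threshold in the main setting. Among these, no change that passed in any fit had the opposite sign in the main setting. The count of members past the threshold, 6, ranged from 3 to 5 when 1 array was left out, and it was 3, all of them falls, without labelled-control array 2, labelled-mutant array 2 or labelled-mutant array 3. With a replicate block it was 3 members, and 657 of all genes instead of 1007. Over all genes, leaving out 1 array gave 435 to 1021 calls, and a floor at the 20th percentile gave 329, though it changes no signal above it. Partners and effectors past the threshold, 3 in the main setting, numbered 1 to 2 with an array left out. They numbered 1 with the floor, 1 with every probe set tested and 7 with trend and robust settings (6 of them lower). Trend and robust settings gave 1032 calls over all genes, 804 of them lower. The floor also ended the calls of Plxna2 (0.0774) and Sema4d (0.0696), whose signals lay above it on every array. With every probe set tested, Sema4d (limma, Benjamini-Hochberg adjusted p = 0.0711), Sema6b (0.0694), Crmp1 (0.0747) and Vegfc (0.0715) missed the threshold. In these fits the signals and changes of these genes were the same as in the main setting. What differed were the standard errors and the adjustment of the p-values. How much each added to the losses was not tested. Of simulated shifts of 0.5 log2 units 66.7% were recovered. Smaller shifts, of the size seen in most members, were not simulated and may go uncalled with 3 arrays per label. The simulation altered 200 genes, fewer than the 1007 called here, so its rates need not hold for these arrays.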
